A study of Mus musculus with 20 samples.

Results

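RNA polymerase II reads every protein-coding gene, and it starts only where general factors have placed it. Most of the 80 genes described here encode its subunits and that starting apparatus. They were taken by symbol from the 24411 genes of the files: 13 of the polymerase, 21 of TFIID, 16 of the other general factors and 30 of Mediator. The symbols also bring in other genes. The paralogues Taf5l and Taf6l of the SAGA coactivator are counted with TFIID. Gtf2i, Gtf2ird1 and Gtf2ird2 of the TFII-I family are counted with the other general factors. They were chosen by name, with the RNA polymerase I factors Taf1a, Taf1b, Taf1c and Taf1d left out, and not by any measured value. All 80 are listed in each of 16 RNA libraries of mouse preimplantation embryos, made from pools of 10 embryos.

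In the knockdown, embryos fertilised in vitro received siRNA against Pcgf5 (siPcgf5) or a control siRNA (siControl) by electroporation 3 hours after insemination. Late 2-cell embryos were pooled at 36 hours into 2 siPcgf5 and 2 siControl libraries, and morulae at 72 hours, again into 2 and 2. In the knockout, without electroporation, pools of the 4-cell stage at 48 hours lacked an MT2C_Mm repeat at the Pcgf5 locus on both alleles (Homo KO, 3 libraries), on a single allele (Hetero KO, 3) or on neither (WT, 2). The MT2C_Mm repeat belongs to the ERVL family of long terminal repeats, related to those of the endogenous retrovirus MERVL, and Pcgf5 encodes a subunit of a variant Polycomb repressive complex 1. Each value is a mean over the 10 embryos of a pool and all their cells. The study's title asks how Pcgf5 bears on zygotic genome activation, when an embryo begins to transcribe for itself.

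Polymerase subunits form a core around the active site, a detachable stalk and a set of small subunits that RNA polymerases I and III use as well. TFIID, made of a TATA-binding protein and its associated factors (TAFs), recognises the promoter, TFIIA and TFIIB bind beside it, TFIIF brings the polymerase, and TFIIE and TFIIH open the DNA. Mediator, built of head, middle and tail with a detachable kinase module, links enhancer-bound factors to the polymerase. Mouse oocytes carry variants of several of these proteins: TBPL2 takes the place of TBP in growing oocytes, and Taf4b, Taf7l and Gtf2a1l are known from the germ line.

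The 250 bases before the RefSeq start are shown for 2 pairs of genes whose oocyte-enriched or less abundant copy fell to 0 or near 0 between the stages described next, while its partner stayed detected. They are read 5′ to 3′ on the gene's strand in GRCm38.p6: Tbpl2 at chr2:24096596-24096845 on the minus strand, Tbp at chr17:15499638-15499887 on the plus strand, Taf9b at chrX:106221159-106221408 on the minus strand and Taf9 at chr13:100651093-100651342 on the plus strand. Capitals mark the GC box GGGCGG or, on the other strand, CCGCCC.
Tbpl2: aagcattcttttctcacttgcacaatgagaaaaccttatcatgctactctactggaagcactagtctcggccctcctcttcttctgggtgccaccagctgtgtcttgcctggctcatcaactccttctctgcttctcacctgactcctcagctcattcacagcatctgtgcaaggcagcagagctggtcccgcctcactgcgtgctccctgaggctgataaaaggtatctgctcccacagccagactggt
Tbp: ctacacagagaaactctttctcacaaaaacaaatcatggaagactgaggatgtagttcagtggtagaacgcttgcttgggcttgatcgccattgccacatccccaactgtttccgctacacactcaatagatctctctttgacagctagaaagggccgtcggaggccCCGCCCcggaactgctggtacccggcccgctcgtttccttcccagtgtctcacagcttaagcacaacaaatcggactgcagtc
Taf9b: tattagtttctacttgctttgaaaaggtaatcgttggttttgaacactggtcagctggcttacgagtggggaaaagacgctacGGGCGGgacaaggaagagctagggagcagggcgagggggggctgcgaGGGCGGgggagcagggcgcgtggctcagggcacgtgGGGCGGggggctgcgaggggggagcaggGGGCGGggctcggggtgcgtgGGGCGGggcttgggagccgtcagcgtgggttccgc
Taf9: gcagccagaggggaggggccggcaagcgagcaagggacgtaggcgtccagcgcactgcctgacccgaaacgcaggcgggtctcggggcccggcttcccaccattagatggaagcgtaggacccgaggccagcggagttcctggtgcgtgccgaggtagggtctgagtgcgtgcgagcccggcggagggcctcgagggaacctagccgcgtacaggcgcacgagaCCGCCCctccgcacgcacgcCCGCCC

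Of the 80 genes, 69 had a promoter in the RefSeq table. Both strands were searched for 6 sets of letters, none of which contains another: the TATA box TATAAA, the CCAAT box CCAAT, the GC box GGGCGG, the ETS motif CCGGAAG, the NRF1 core CGCATGCG and the YY1 motif AAGATGGCG. Of the 69 windows, 43 (62.3%) held GGGCGG, against 32.9% of the 27025 promoters of the table, and 14 (20.3%) held CCGGAAG, against 7.05%. TATAAA stood in 12 of the 69 (17.4%), against 13% of all promoters, CCAAT in 23 (33.3%), against 34.5%, and AAGATGGCG in 1 (1.45%), against 0.607%. For NRF1 a longer form, the core with G before and C after it, was searched first and stood in 0 of the 69, against 0.781% of all promoters. The core alone, chosen after that result was seen, stood in 5 (7.25%), against 1.58%, so the outcome rests on the form searched. The Tbpl2 window held none of the 6 and contained 3 CG dinucleotides, against 11 in Tbp, 20 in Taf9b and 29 in Taf9. The median over the 69 was 19 CG dinucleotides, and over all promoters it was 6. Among the genes that rose at the morula in siControl embryos 16 of 24 windows (66.7%) held GGGCGG, and among those that fell 8 of 13 (61.5%) did, so these letters were found among both.

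Depth, in summed expected counts, ran from 14310634 to 55620137 a library. Pcgf5 mRNA checked the labels: siPcgf5 late 2-cell libraries held 12.8% of the siControl level and siPcgf5 morulae 17.3%, while Homo KO embryos held 60.7% and Hetero KO embryos 93.3% of WT. None of these differences passed by edgeR (adjusted p = 0.0789, 0.242, 0.236 and 0.987 in that order), so the lack of calls in these comparisons extends to the targeted gene itself, and the Hetero KO label is not checked by it. The defining markers followed the stage. Summed over 9 oocyte and maternal genes, the level was 45.1 to 58.3 TPM in siControl morulae and 30797 to 51419 TPM in siControl late 2-cell libraries, and 9 morula genes summed to 291 to 303 TPM and 37.0 to 49.0 TPM in the same libraries. Cumulus and granulosa markers, 8 genes, summed to at most 0.06 TPM in the 4 morula libraries, with 6 to 8 of them at 0, against 22.7 to 39.1 TPM in the 4 late 2-cell libraries, with 2 to 4 at 0. Blood markers, 6 genes, summed to 35.0 to 86.0 TPM against 1081 to 1447 TPM in the same libraries. The part of either in the stage differences was not tested. The siControl late 2-cell libraries differed in summed TFIID level, with 4541 TPM in replicate 1 and 6987 TPM in replicate 2, on either side of both siPcgf5 libraries at 5709 and 5800 TPM. That gap was one of Taf9, at 2667 and 5413 TPM, since the other 20 TFIID genes summed to 1874 and 1574 TPM. The labels do not say whether replicates were separate cultures, so the p-values below reflect variation among these libraries, which may be technical.

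Levels are first given in TPM, transcripts scaled by length to a fixed total in each library. Over the stages, the 13 polymerase genes summed to 12120 to 12750 TPM in the 4 late 2-cell libraries, 10910 to 12330 TPM in the 8 libraries of the 4-cell stage and 6583 to 7260 TPM in the 4 morula libraries. TFIID genes summed to 4541 to 6987 TPM, then 4937 to 6542 TPM, then 1506 to 1733 TPM. Mediator genes gave 4251 to 5270 TPM, 4450 to 6488 TPM and 3373 to 3536 TPM, and the other general factors 1956 to 2308 TPM, 1912 to 2310 TPM and 1486 to 1533 TPM. Every morula library therefore lay below every library of both earlier stages in all 4 sums. The 4-cell libraries come from the other experiment, so stage and experiment cannot be told apart there, and in pools of embryos fewer cells of a type and less RNA per cell cannot be told apart either.

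**Figure D1:**
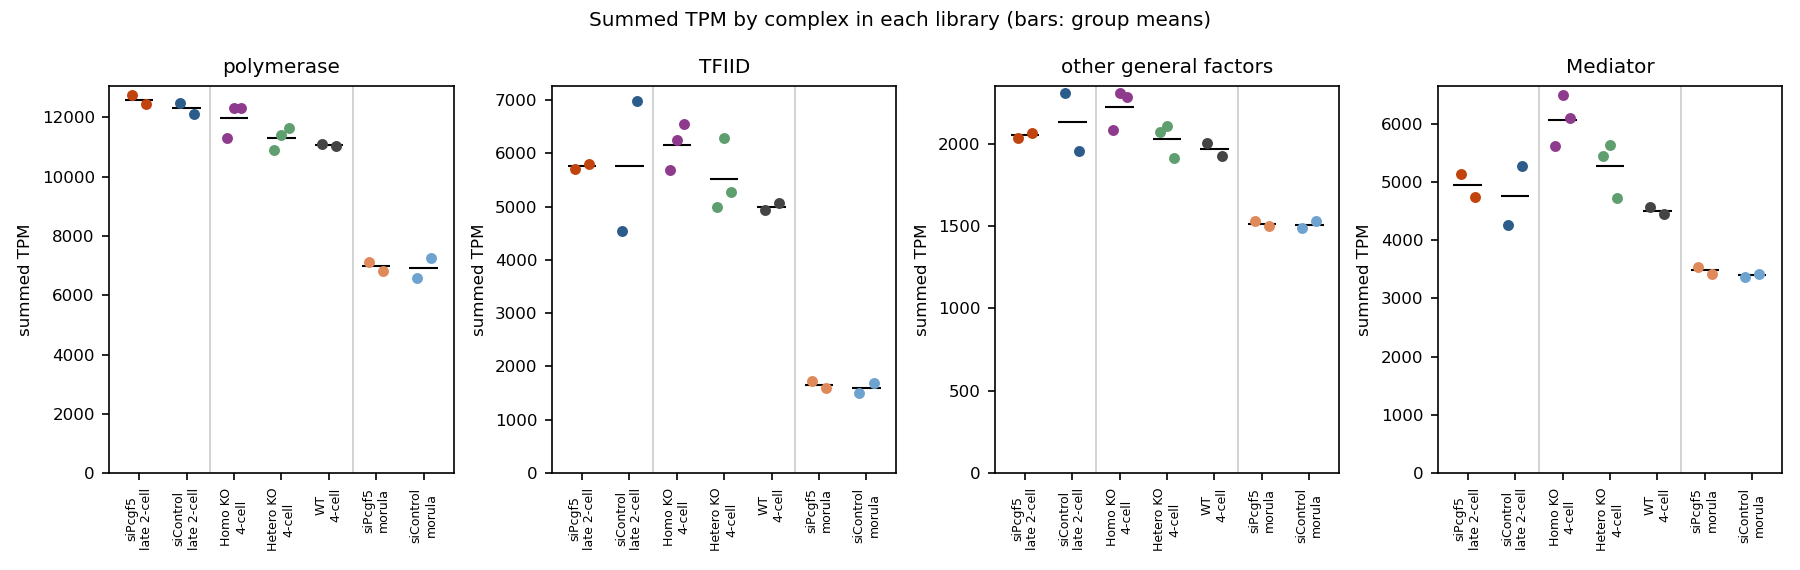
Summed TPM of the polymerase (13 genes), TFIID (21), other general factor (16) and Mediator (30) genes in each of 16 libraries, one point a library, with bars at group means. All 4 sums are lowest in the 4 morula libraries, where TFIID stands at 1506 to 1733 TPM.

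This fall depends on the scale. TPM share out a fixed total, and ribosomal protein genes took 5.49% to 7.98% of it at the late 2-cell stage, 12.6% to 16.9% at the 4-cell stage and 22.1% to 23.7% at the morula. Their part in the difference between scales was not tested. Between siControl morula and late 2-cell embryos the TPM of an expressed gene stood 1.0 lower in log2 than its TMM-scaled count per kilobase. TMM equalises the bulk of genes between libraries. In TPM the siControl morula over late 2-cell ratio of the sums was 0.562 for the polymerase, 0.278 for TFIID, 0.708 for the other general factors and 0.713 for Mediator. In TMM-scaled counts per kilobase it was 1.13, 0.553, 1.43 and 1.43 in the same order. The TFIID sum is mostly Taf9, which made up 58.7% to 77.5% of it at the late 2-cell stage and 44.5% to 49.0% at the morula, and whose level is uncertain because its locus overlaps Ak6. Without Taf9, a sum chosen after the values were seen, the other 20 TFIID genes had ratios of 0.493 in TPM and 1.00 in TMM-scaled counts per kilobase. The fall of the TFIID sum in TMM-scaled counts was thus that of Taf9, while in TPM the sum of the other 20 genes fell as well. What does not depend on the scale is how members moved relative to one another.

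Within the polymerase the subunits were far from equal in mRNA. At the late 2-cell stage Polr2j, which forms the assembly platform with Polr2c, led with a median of 4295 TPM over 4 libraries, ahead of Polr2f at 2782 TPM. Polr2a, the largest subunit, which carries the C-terminal repeat domain, had the lowest level at each stage, with medians of 1.75, 3.53 and 3.92 TPM at the late 2-cell, 4-cell and morula stages. Polr2b, which forms the active site with it, stood at 44.9, 101 and 51.6 TPM. Polr2k, Rpb12, led at the 4-cell stage with 2636 TPM, where its range overlapped that of Polr2f, and Polr2f led at the morula with 1776 TPM, above Polr2k in every pair of libraries. Across the 80 genes the level ran against the effective transcript length, with a Spearman rho of -0.721 at the late 2-cell stage, -0.716 at the 4-cell stage and -0.752 at the morula. This is a correlation across genes, which share libraries and depth. TPM are also counts divided by this same length, so level and length are not independent measures.

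As a share of the summed polymerase TPM, which no scaling alters, Polr2j took 14.1% to 15.6% in the morula libraries against 28.8% to 45.2% in the late 2-cell libraries. Polr2g, Rpb7 of the stalk, took 2.37% to 3.07% against 7.88% to 10.1%. Polr2k took 19.8% to 22.7% against 5.18% to 12.3%, Polr2e, Rpb5, took 5.83% to 7.09% against 1.70% to 2.24%, and Polr2i, the fidelity subunit Rpb9, took 3.25% to 3.99% against 0.843% to 1.55%. None of these ranges overlapped between the stages.

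The stage comparison asked which of these mRNAs differed between morula and late 2-cell embryos, by edgeR's quasi-likelihood test on TMM-scaled counts with Benjamini-Hochberg adjustment over 16980 genes and a threshold of 0.05. In siControl embryos 29 of 80 genes rose and 14 fell, where 24.9% of all genes tested rose and 28.1% fell. In siPcgf5 embryos 26 rose and 14 fell, where 24.5% and 28.2% of all genes did. The median log2 fold change of the 80 was 0.20 in siControl embryos, 0.54 above the all-gene median of -0.34, and 0.17 in siPcgf5 embryos, 0.55 above the all-gene median of -0.38. Both medians were the same with the one gene at 0 in a whole group set to its bound. Both comparisons called 25 genes higher and 12 lower, which is 86.2% and 85.7% of the siControl calls and 96.2% and 85.7% of the siPcgf5 calls, and 0 genes were called in opposite directions. They share no library, but both come from the same fit and share its estimate of the spread. The overlap of calls over all genes is not given here. Values that did not overlap between the stages were higher in 35 genes and lower in 21 in siControl embryos, where 36.3% and 42.4% of all genes were, and higher in 41 and lower in 28 in siPcgf5 embryos, where 36.2% and 44.4% were.

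By complex, 8 of 13 polymerase genes (61.5%) rose and 2 (15.4%) fell in siControl embryos, where 24.9% and 28.1% of all genes did. In siPcgf5 embryos 7 rose (53.8%) and 3 fell (23.1%), where 24.5% and 28.2% of all genes did. Of the 30 Mediator genes 12 rose (40%) and 1 fell (3.33%) in both comparisons. TFIID, with 21 genes, had 4 up (19%) and 6 down (28.6%) in siControl embryos. In siPcgf5 embryos it had 2 up (9.52%) and 6 down (28.6%). The SAGA paralogues Taf5l and Taf6l gave 2 of these siControl rises and 1 of the siPcgf5 rises. The 16 other general factors had 5 up in both (31.2%), with 5 (31.2%) and 4 (25%) down. The TFII-I family gave 2 of these siControl falls. In siControl embryos the median was 1.32 above that of all genes for the polymerase, 0.85 for Mediator, 0.46 for the other general factors and 0.19 for TFIID. In siPcgf5 embryos these differences were 0.97, 0.78, 0.50 and 0.14. The counts depend on the method. EdgeR with DESeq2 size factors kept 39 of the 43 siControl calls and 39 of the 40 siPcgf5 calls. By limma on log2(TPM + 1), 7 rose and 41 fell in siControl embryos and 11 rose and 39 fell in siPcgf5 embryos. Over all 16980 genes it called 2452 higher and 7388 lower in siControl embryos, and 2558 and 6846 in siPcgf5 embryos. Tool, transformation and unit all changed there, and the median of the 80 lay 0.12 and 0.13 below that of all genes. Without siControl morula replicate 1 the siControl comparison called 21 genes higher and 9 lower, and without siControl late 2-cell replicate 1 or 2 it called 28 or 33 higher and 14 lower each time.

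The genes called in the same direction in both comparisons by edgeR with either size factors, by DESeq2 and by limma on TPM were 6 that rose (Polr2e, Polr2m, Taf6, Gtf2h2, Med9 and Med19) and 12 that fell (Tbpl2, Taf7l, Taf9b, Taf9, Taf3, Taf4a, Gtf2a1, Gtf2a2, Gtf2a1l, Polr2g, Polr2j and Med13). The other rises did not pass by limma on TPM in at least one comparison, or turned round there. How many of all genes kept their direction by all these methods in both comparisons is not given here.

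**Figure D2:**
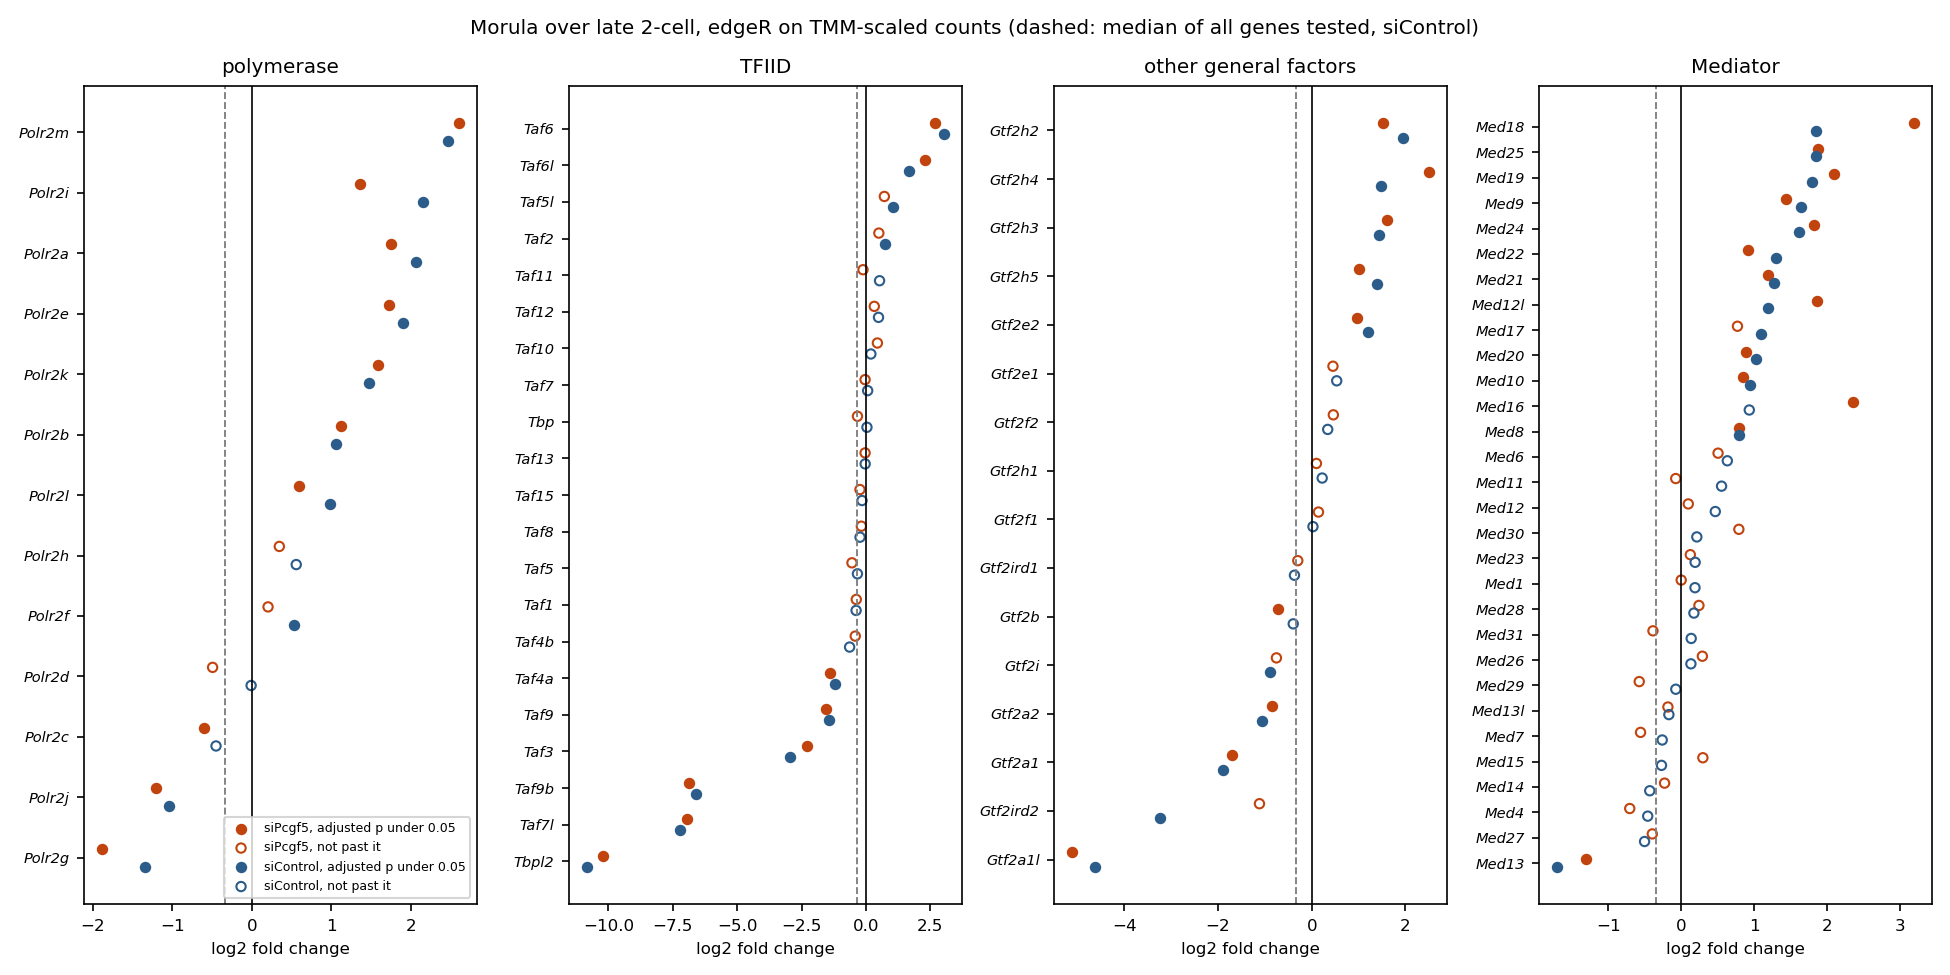
Log2 fold change of morula over late 2-cell embryos for the 80 genes by complex, in siPcgf5 (orange) and siControl (blue) embryos. Filled points have an edgeR adjusted p under 0.05, and the dashed line is the median of all genes tested in siControl embryos (-0.34). The polymerase and Mediator panels lie mostly to the right, while the farthest left points are Tbpl2, Taf7l, Taf9b and Gtf2a1l.

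In the polymerase the largest rise was that of Polr2m, the associated subunit Gdown1 (chromosome 9, 71478437 to 71485983). It had 81.2 and 57.2 CPM (read counts scaled to library size, with TMM) in siControl morulae against 10.6 and 14.5 CPM in siControl late 2-cell embryos, a log2 fold change of 2.47 (SE 0.301, edgeR adjusted p = 6.23e-05). SiPcgf5 embryos gave 69.5 and 88.3 CPM against 14.8 and 11.1 CPM, with a log2 fold change of 2.61. Both morula groups lay wholly above both late 2-cell groups. Polr2a had 33.5 and 26.8 CPM in siControl morulae against 7.99 and 6.30 CPM at the late 2-cell stage (log2 fold change 2.07, SE 0.417), and 30.8 and 32.7 against 5.32 and 13.5 CPM in siPcgf5 embryos (1.75, SE 0.411). Polr2b rose with it by 1.05 and 1.12, so that both subunits of the active site stood higher on the TMM scale, though neither passed by limma on TPM.

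Of the 5 small subunits shared with polymerases I and III, Polr2e, Polr2k and Polr2l rose in both comparisons on the TMM scale. Polr2e had 483 and 436 CPM in siControl morulae against 102 and 143 CPM in late 2-cell controls (log2 fold change 1.91, SE 0.226), and 465 and 460 against 149 and 130 CPM in siPcgf5 embryos (1.72). Polr2k had log2 fold changes of 1.48 and 1.58 in siControl and siPcgf5 embryos, and its locus overlaps Spag1. Polr2l had 0.98 and 0.59, and -0.03 and -0.27 by limma on TPM. Polr2f rose in siControl embryos (0.54, adjusted p = 0.0439) but had 0.20 in siPcgf5 embryos and -0.55 and -0.68 on the TPM scale. Polr2h, Rpb8, did not pass, with 0.56 and 0.35, and -0.45 and -0.53 on the TPM scale.

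Polr2g and Polr2j fell in both comparisons. Polr2g, of the stalk, had 146 and 190 CPM in siControl morulae against 392 and 460 CPM in late 2-cell controls, and it fell by 1.34 in log2 (SE 0.216, adjusted p = 0.000413). In siPcgf5 embryos it had 138 and 146 against 491 and 560 CPM and fell by 1.89. Its partner in the stalk, Polr2d, Rpb4, did not pass, with -0.01 and -0.49. Polr2j had 480 and 564 against 1302 and 851 CPM in siControl embryos (log2 fold change -1.04) and 476 and 502 against 1181 and 1079 CPM in siPcgf5 embryos (-1.21). Polr2c had -0.45 in siControl embryos, which did not pass, and fell by 0.60 in siPcgf5 embryos. The core subunit Polr2i rose by 2.16 in siControl and by 1.36 in siPcgf5 embryos, and the siPcgf5 call was lost by limma on TPM. Among these calls those of Polr2f and Polr2j in siControl embryos were lost without siControl morula replicate 1, that of Polr2f also without replicate 2. Those of Polr2l and Polr2c in siPcgf5 embryos were lost without either siPcgf5 morula library or siPcgf5 late 2-cell replicate 1, that of Polr2c also without late 2-cell replicate 2.

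TFIID held both the deepest falls and the largest rise in siControl embryos. Tbpl2 (chromosome 2, 24071366 to 24096595) had 0 CPM in both siControl morulae against 8.55 and 3.62 CPM in late 2-cell controls, and 0 in both siPcgf5 morulae against 3.55 and 4.42 CPM. With a floor of 3 counts over the morula group, it was at least 175-fold lower in siControl and at least 102-fold lower in siPcgf5 morulae. Tbp itself had 89.2 and 98.2 CPM in siControl morulae against 79.1 and 104 CPM in late 2-cell controls, with overlapping groups and a log2 fold change of 0.04 (SE 0.226). In siPcgf5 embryos it had 89.95 and 91.6 against 129 and 99.6 CPM (-0.33, adjusted p = 0.235). The sign of the siControl value turns with the method, to -0.14 with DESeq2 size factors and -0.95 by limma on TPM, where it passed.

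Taf7l, the germ cell paralogue of Taf7, had 0 and 0.635 CPM in siControl morulae against 39.9 and 55.3 CPM in late 2-cell controls (log2 fold change -7.21, SE 1.39), and 0.741 and 0 against 47.8 and 36.4 CPM in siPcgf5 embryos. Taf9b had 0.562 and 3.51 against 207 and 189 CPM in siControl embryos (-6.60, SE 0.769) and 1.48 and 0.564 against 117 and 120 CPM in siPcgf5 embryos (-6.89). Both genes were thus almost absent from morulae and clearly detected before. Taf3, whose PHD finger binds trimethylated lysine 4 of histone H3, had 15.4 and 16.4 CPM in siControl morulae against 136 and 108 CPM in late 2-cell controls and fell by 2.94 (SE 0.241, adjusted p = 4.97e-06). In siPcgf5 embryos it had 22.1 and 21.4 against 95.6 and 118 CPM and fell by 2.30. Taf9, a histone fold subunit shared with the SAGA coactivator, had 876 and 1083 CPM in siControl morulae against 1626 and 3639 CPM in late 2-cell controls (-1.43) and fell by 1.56 in siPcgf5 embryos. Its locus overlaps Ak6 by 4718 bases, so its level is uncertain. Taf4a fell by 1.21 and 1.38.

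Taf6, the histone fold partner of Taf9, moved opposite to it. It had 101 and 90.9 CPM in siControl morulae against 11.97 and 11.6 CPM in late 2-cell controls, a log2 fold change of 3.03 (SE 0.226, adjusted p = 3.05e-06). In siPcgf5 embryos it had 106 and 108 against 17.3 and 15.8 CPM (2.69). Taf6 (chromosome 5, 138178617 to 138187451) shares 1813 bases with Ap4m1, and without stated strand information reads of the pair cannot be told apart. The SAGA paralogue Taf6l rose too, by 1.66 and 2.30. Taf5l and Taf2 rose in siControl embryos (1.05 and 0.73) and had 0.71 and 0.50 in siPcgf5 embryos, which did not pass. The siControl calls of Taf2, Taf5l and Taf6l were lost without siControl late 2-cell replicate 1 or siControl morula replicate 1, and those of Taf2, Taf5l and Taf4a without siControl morula replicate 2. Taf7, Taf10, Taf13, Taf15, Taf8, Taf1, Taf5, Taf4b, Taf11 and Taf12 did not pass in either comparison.

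Among the other general factors every TFIIA gene fell, and 4 of the 5 TFIIH genes in the set rose on the TMM scale. The helicase and kinase genes of TFIIH lie outside the set. Gtf2a1, the large TFIIA subunit, had 44.4 and 54.1 CPM in siControl morulae against 208 and 158 CPM in late 2-cell controls (log2 fold change -1.90, SE 0.233), and 42.8 and 47.2 against 136 and 159 CPM in siPcgf5 embryos (-1.71). Gtf2a2, the small one, had 124 and 138 against 381 and 168 CPM in siControl embryos (-1.07) and 122 and 119.4 against 230 and 205 CPM in siPcgf5 embryos (-0.85). The germ line form Gtf2a1l had 0 and 0.280 against 4.51 and 2.54 CPM in siControl embryos and 0.161 and 0 against 1.61 and 3.72 CPM in siPcgf5 embryos. All 3 had groups that did not overlap.

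Of the 5 TFIIH core genes in the set, 4 went up on the TMM scale. Gtf2h2, p44, had 289 and 293 CPM in siControl morulae against 61.8 and 89.99 CPM in late 2-cell controls (log2 fold change 1.94, SE 0.238), and 247 and 275 against 99.5 and 82.2 CPM in siPcgf5 embryos (1.52). Gtf2h4, p52, rose by 1.48 and 2.50, Gtf2h3, p34, by 1.43 and 1.61, and Gtf2h5, p8, by 1.39 and 1.00, while Gtf2h1, p62, had 0.22 and 0.10 and did not pass. Of TFIIE, Gtf2e2 rose by 1.21 and 0.96 and Gtf2e1 did not pass. Neither TFIIF gene passed, with 0.03 and 0.14 for Gtf2f1 and 0.34 and 0.46 for Gtf2f2. Gtf2b, which is TFIIB, had -0.40 in siControl and fell by 0.73 in siPcgf5 embryos, and Gtf2i and Gtf2ird2 of the TFII-I family fell in siControl embryos. For Gtf2a2 the siControl call held with siControl late 2-cell replicate 2 left out and with no other library left out, and the siPcgf5 call was lost without any 1 of its 4 libraries. Those of Gtf2a1l were lost without siControl late 2-cell replicate 1, siControl morula replicate 1, siPcgf5 late 2-cell replicate 2 or siPcgf5 morula replicate 2. That of Gtf2b was lost without siPcgf5 late 2-cell replicate 2 or siPcgf5 morula replicate 1, and those of Gtf2i and Gtf2ird2 without either siControl morula library, that of Gtf2ird2 also without either siControl late 2-cell library and that of Gtf2i without replicate 2 of them.

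The 12 Mediator genes called higher in siControl embryos, where 24.9% of all genes were, were 6 of 8 in the head, 3 of 8 in the middle, 2 of 9 in the tail and 1 of 4 in the kinase module. In siPcgf5 embryos the 12 were 5, 3, 3 and 1 in the same order. These shares were not tested against each other, and of the 12 siControl rises Med9 and Med19 passed by limma on TPM. Med19, of the head, had 140 and 139 CPM in siControl morulae against 38.6 and 42.0 CPM in late 2-cell controls (log2 fold change 1.79, SE 0.204, adjusted p = 3.82e-05), and 144 and 146 against 32.2 and 35.8 CPM in siPcgf5 embryos (2.09). Med9, of the middle, had 84.9 and 86.7 against 24.1 and 31.1 CPM in siControl embryos (1.64) and 84.6 and 88.5 against 30.8 and 33.2 CPM in siPcgf5 embryos (1.44). Both stood far above the late 2-cell spread.

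Med10, the most abundant Mediator mRNA, had 1367 and 1361 CPM in siControl morulae against 535 and 883 CPM in late 2-cell controls (log2 fold change 0.94) and rose by 0.84 in siPcgf5 embryos. Med18 (1.85 and 3.19), Med25 (1.85 and 1.88), Med24 (1.62 and 1.82) and Med12l (1.18 and 1.86) rose in both comparisons, and Med16 rose in siPcgf5 embryos alone (0.93 and 2.35), where the difference between the 2 changes was not called. Med13, which tethers the kinase module to Mediator, was the only Mediator gene called lower. It had 28.2 and 35.2 CPM in siControl morulae against 83.4 and 123 CPM in late 2-cell controls (-1.70, SE 0.299), and 43.0 and 26.0 against 87.7 and 82.3 CPM in siPcgf5 embryos (-1.30). Its paralogue Med13l had -0.17 and -0.18. In siControl embryos the call of Med18 was lost without any 1 of the 4 libraries, that of Med8 without siControl late 2-cell replicate 1 or either siControl morula library, those of Med17 and Med25 without siControl morula replicate 1 and that of Med12l without siControl morula replicate 2. In siPcgf5 embryos the call of Med16 was lost without any 1 of the 4 libraries, those of Med10 and Med20 without siPcgf5 late 2-cell replicate 2 or either siPcgf5 morula library, those of Med8 and Med25 without either siPcgf5 late 2-cell library or siPcgf5 morula replicate 2, and that of Med22 without siPcgf5 late 2-cell replicate 2.

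Neighbouring parts of the transcription machinery gave a background. Beside them, 24.9% of all genes tested rose and 28.1% fell in siControl embryos, and 24.5% rose and 28.2% fell in siPcgf5 embryos. Of 25 elongation factors 10 rose and 3 fell in siControl embryos and 12 rose and 4 fell in siPcgf5 embryos. Of 14 SAGA subunits 8 rose and 1 fell, and 6 rose and 0 fell. Of 16 RNA polymerase I and III subunits 6 rose and 3 fell in both. Of 20 kinases, cyclins and phosphatases of the C-terminal domain 4 rose and 5 fell, and 3 rose and 6 fell. Of 14 Integrator subunits 5 rose and 2 fell, and 4 rose and 2 fell. Of 11 TFIIH helicases, TBP regulators and assembly factors 3 rose and 3 fell, and 5 rose and 3 fell. Median log2 fold changes in siControl embryos were 0.37, 1.11, 0.58, -0.22, -0.17 and 0.02 for these lists in the order given, beside the all-gene median of -0.34.

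At the 4-cell stage, WT embryos did not simply lie between both siControl stages. In TPM, 24 of the 80 genes stood above, in both WT libraries, every siControl late 2-cell and morula library, and 7 stood below all of them, where 10.8% and 8.79% of 21073 genes did. The 24 were 9 Mediator, 6 TFIID, 5 other general factor and 4 polymerase genes. Tbp had 159 and 129 TPM in WT 4-cell embryos, against 80.8 and 95.1 TPM in siControl late 2-cell embryos and 42.6 and 47.1 TPM in siControl morulae. Polr2b had 109 and 104 TPM in WT, against 46.5 and 59.7 TPM and 52.9 and 57.8 TPM. Polr2m had 47.5 and 38.0 TPM in WT, against 8.80 and 10.6 TPM and 31.2 and 22.1 TPM. These 3 therefore peaked in the middle of the series on this scale, while Taf10 was lowest there, with 200 and 169 TPM in WT, against 589 and 359 TPM and 257 and 261 TPM. No test was made across the experiments, and stage and experiment cannot be told apart here.

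**Figure D3:**
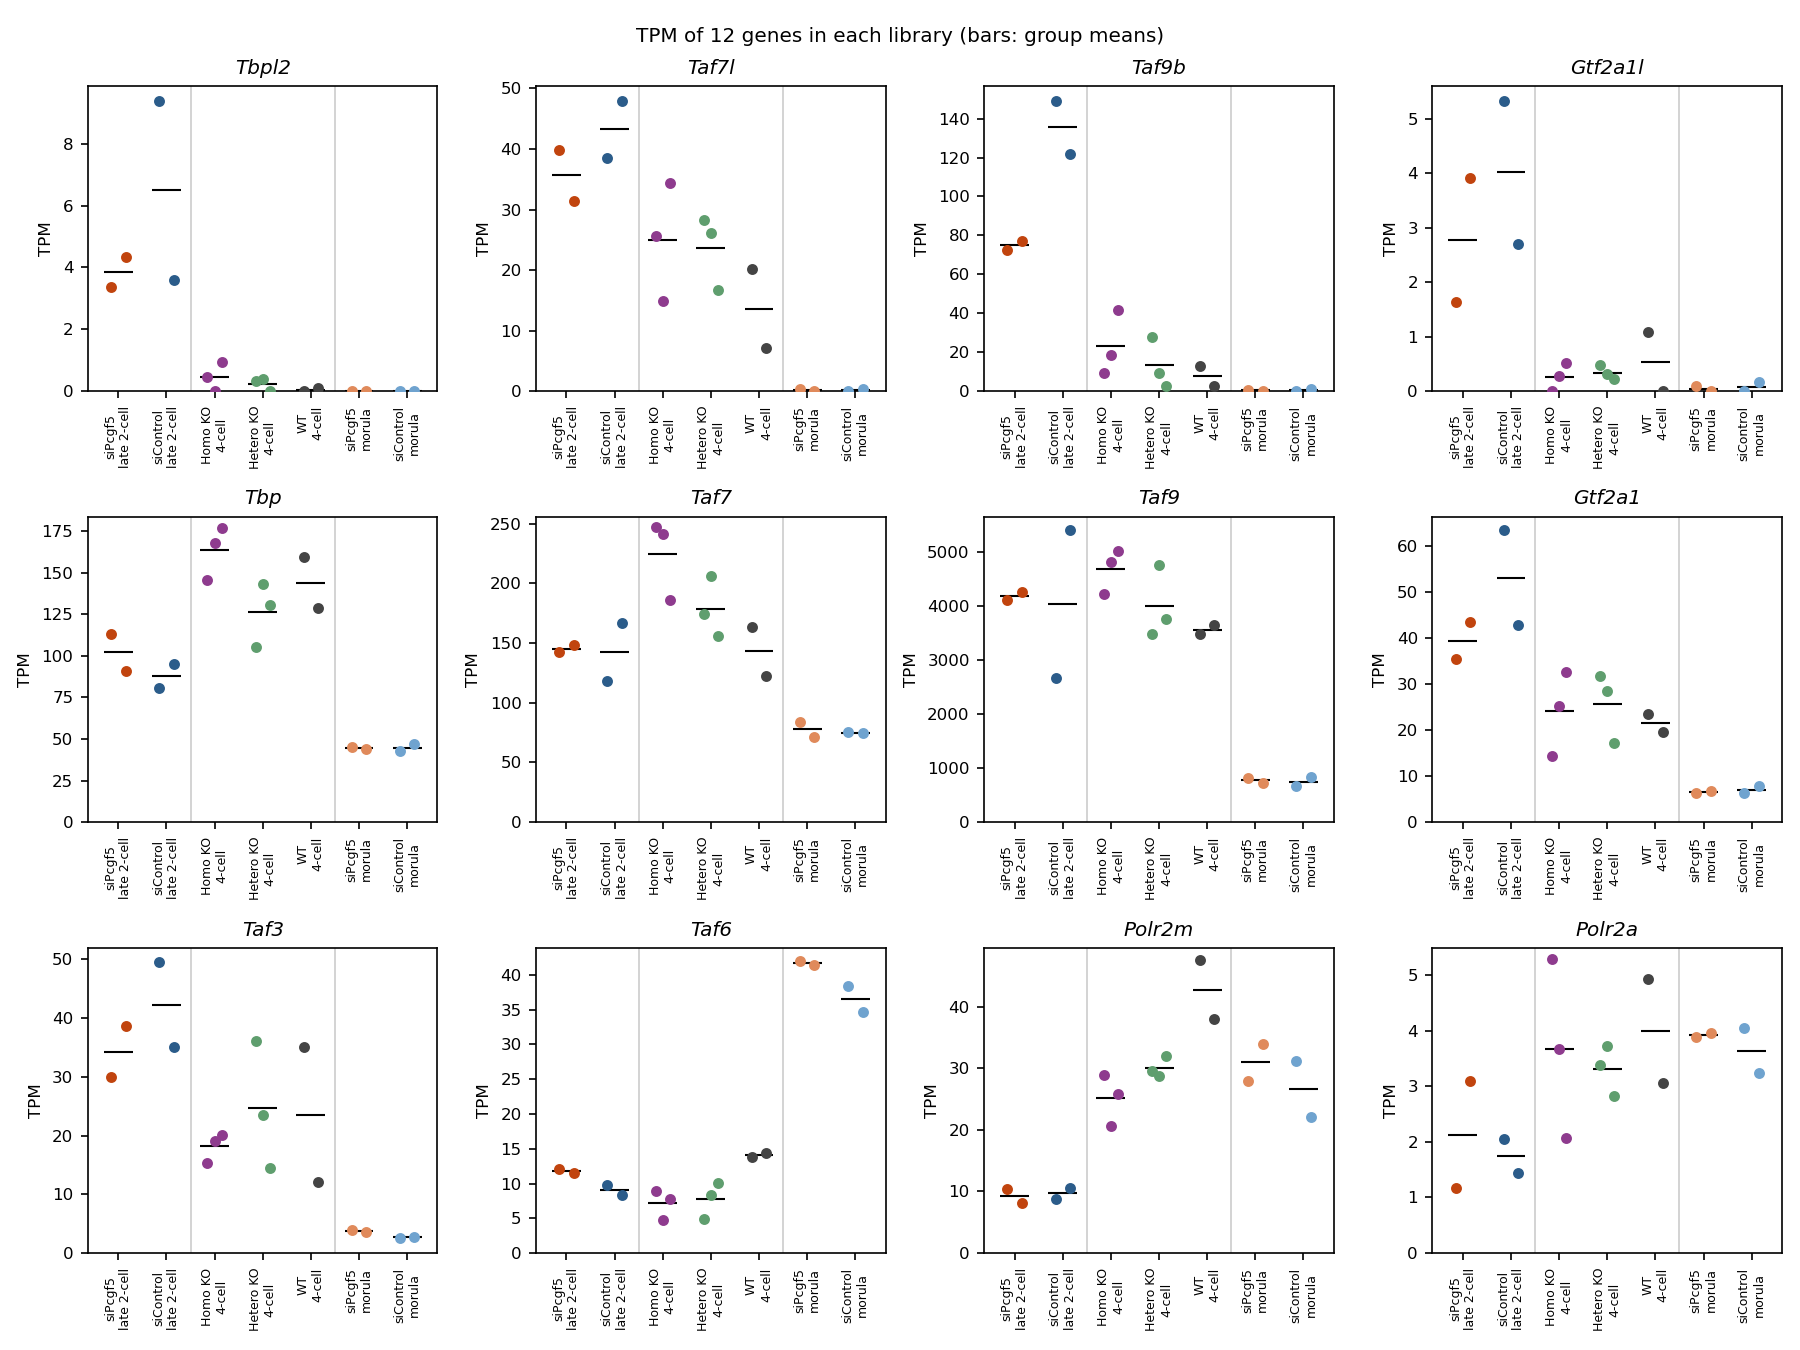
TPM of 12 genes in every library, one point a library, with bars at group means and pale lines between the late 2-cell, 4-cell and morula stages. Tbpl2, Taf7l, Taf9b and Gtf2a1l end near 0 at the morula, Taf6 stands at 34.7 to 42.0 TPM only there, and Tbp has its highest group means at the 4-cell stage.

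The share of a paralogue in the summed TPM of its pair needs no scaling between libraries. A lower share shows a fall of the paralogue relative to its partner and does not show that the partner rose. Tbpl2 made up 2.88% to 10.4% of the pair with Tbp in the 4 late 2-cell libraries, 0% to 0.534% in the 8 libraries of the 4-cell stage and 0% in the 4 morula libraries. Taf7l made up 17.5% to 24.7% of the pair with Taf7, then 5.47% to 15.6%, then 0% to 0.415%. Taf9b made up 1.74% to 5.30% of the pair with Taf9, then 0.0678% to 0.819%, then 0.0260% to 0.143%. For Tbpl2, Taf7l and Taf9b the late 2-cell range lay above both other ranges. The 4-cell libraries come from the other experiment, so stage and experiment cannot be told apart in their shares. Taf7 shares its locus with Gm37013 and Gm38666 and Taf9 overlaps Ak6, so both are uncertain. Gtf2a1l made up 4.41% to 8.27% of the pair with Gtf2a1, then 0% to 4.37%, then 0% to 2.02%.

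The other pairs showed no common direction. Taf5l made up 18.5% to 33.1% of the pair with Taf5 at the late 2-cell stage, 33.3% to 67.6% at the 4-cell stage and 43.4% to 50% at the morula. Med13l made up 18.5% to 25.8% of the pair with Med13, then 10.4% to 15.1%, then 32.2% to 46.1%, so that the 4-cell range was the lowest. Taf4b, the gonadal paralogue, was the larger partner of Taf4a throughout, at 65.3% to 78.1%, 82.5% to 96.1% and 79.3% to 89.0%. Taf6l made up 11.1% to 22.0% of the pair with Taf6, 0% to 21.8% and 7.49% to 13.3%. Med12l ranged from 43.7% to 80.2% of the pair with Med12, from 14.1% to 92.2% and from 77.0% to 89.5%, with both genes at or under 2.57 TPM in every library.

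**Figure D4:**
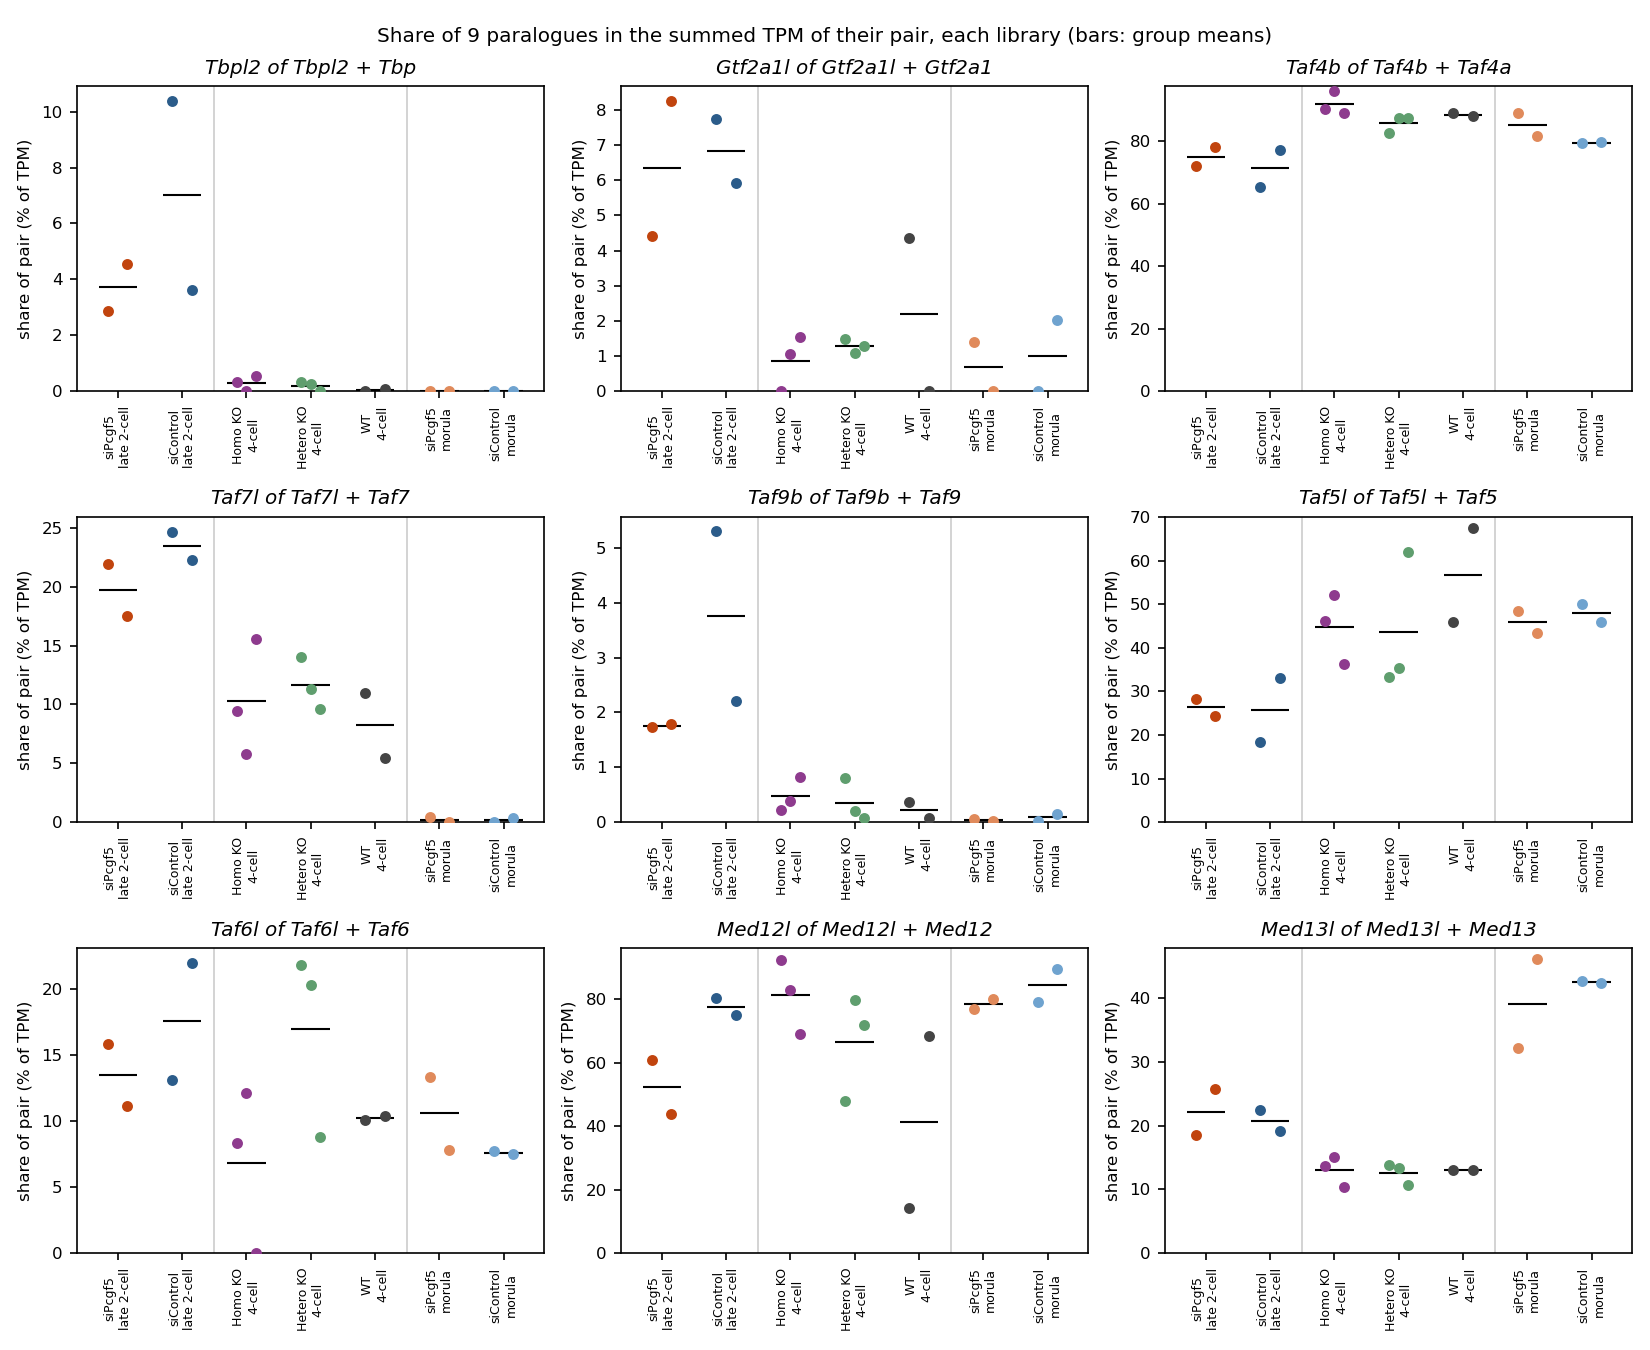
Share of 9 paralogues in the summed TPM of their pair, in percent, one point a library, with bars at group means, from the late 2-cell stage at the left to the morula at the right. Tbpl2, Taf7l, Taf9b and Gtf2a1l have their highest group means at the late 2-cell stage, and Med13l has its highest at the morula.

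Knockdown of Pcgf5 gave no call among these genes, in comparisons that use the libraries of the stage comparisons again. At the late 2-cell stage edgeR called 0 of 80, as did DESeq2 and limma. Among all 16980 genes edgeR called 1 in each direction (0.00589%), DESeq2 27 higher and 45 lower, and limma 8 and 6. An unadjusted p under 0.05 was reached by 5 of the 80, against 5.58% of all genes. The median was 0.12, beside -0.01 over all genes. The smallest p belonged to Med12l, a kinase module subunit, with 6.43 and 5.34 CPM after Pcgf5 knockdown against 12.1 and 12.5 CPM in controls (log2 fold change -1.06, SE 0.307, adjusted p = 0.688). Polr2i had 66.6 and 53.3 against 30.7 and 39.8 CPM (0.77, SE 0.231) and Taf11 had 78.9 and 54.5 against 33.7 and 43.3 CPM (0.79, SE 0.251). Taf6 had 17.3 and 15.8 against 11.97 and 11.6 CPM (0.49), and Med29, of the tail, had 575 and 533 against 297 and 462 CPM (0.55). The groups of these 5 did not overlap, yet none passed. Over the 80, siPcgf5 values lay wholly above siControl in 18 genes and wholly below in 7, where 15.5% and 15.7% of all genes did. In the same libraries the 7 markers of 2-cell embryos summed to 2094 to 2983 TPM in siPcgf5 and 1615 to 1782 TPM in siControl embryos, with none at 0, and the 6 blood markers to 1305 to 1447 TPM and 1081 to 1146 TPM, with 3 to 4 at 0 in either group. Their part in these values was not tested.

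At the morula edgeR, DESeq2 and limma called 0 of 80, and 0 of the 80 reached an unadjusted p under 0.05, against 4.22% of all genes. EdgeR called 0% of all genes in either direction, DESeq2 called 5 higher and 18 lower, and limma called 0. The median was 0.02, beside -0.01 over all genes, and the polymerase genes ran from -0.24 to 0.19. Taf3 had 22.1 and 21.4 CPM after Pcgf5 knockdown against 15.4 and 16.4 CPM in control morulae (log2 fold change 0.45, SE 0.226, unadjusted p = 0.0743 by edgeR). Next by p came Taf1 (0.41), Taf4a (-0.45), Taf9b (-1.03) and Gtf2h3 (0.30). The groups were wholly apart in 21 genes higher and 13 lower, where 13.8% and 17.7% of all genes were. Taf9b had 1.48 and 0.564 against 0.562 and 3.51 CPM, with overlapping groups, and turned to 0.82 without siControl morula replicate 2.

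The difference between the siPcgf5 effects at the morula and the late 2-cell stage also called 0 of 80 by edgeR, DESeq2 and limma, with 2 at an unadjusted p under 0.05, against 4.96% of all genes. EdgeR called 0% of all genes here too. Those 2 were Polr2i (-0.80, SE 0.325) and Gtf2h4 (1.03, SE 0.449), with adjusted p of 0.966 and 0.982. Morula values of Polr2i were 139 and 170 CPM after Pcgf5 knockdown and 165 and 150 CPM in controls, so its late 2-cell difference was not seen there. The next smallest p belonged to Taf3 (0.64), Med11 (-0.63) and Polr2g (-0.55).

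In Homo KO against WT 4-cell embryos edgeR called 0 of the 78 genes it could test and 0% of all 13766. Tbpl2 and Gtf2a1l were not tested, with at most 18 counts in a library. An unadjusted p under 0.05 was reached by 12 of the 78, against 12.4% of all genes. Med10, of the Mediator middle, had 1204, 1581 and 1222 CPM in Homo KO, against 728 and 683 CPM in WT (log2 fold change 0.92, SE 0.177, adjusted p = 0.203). Polr2g had 213, 256 and 197 CPM in Homo KO, against 144 and 108 CPM in WT (0.82, SE 0.198, adjusted p = 0.234), and Taf7 had 664, 620 and 462 CPM, against 381 and 344 CPM (0.68, SE 0.193). All Homo KO libraries lay above both WT libraries for these 3, as they did for 16 genes, with 12 wholly below, where 15.1% and 15.2% of all genes were. DESeq2 called these 3 genes higher, with adjusted p of 0.00135, 0.0135 and 0.0448, edgeR without a filter on low counts called Med10 alone (0.0291), and limma on TPM called 0. Over all genes DESeq2 called 237 higher and 96 lower, edgeR without the filter 38 and 21, and limma 0.

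Gtf2a2 had 133, 202 and 196 CPM in Homo KO, against 93.6 and 109 CPM in WT (0.80, SE 0.240), and Polr2m had 51.1, 34.9 and 41.8 CPM, against 73.0 and 69.3 CPM (-0.74, SE 0.234). In Hetero KO these genes had 209, 173 and 142 CPM and 47.0, 46.1 and 57.6 CPM, with log2 fold changes against WT of 0.79 and -0.50, so that both knockout groups stood on the same side of the 2 WT libraries they share. EdgeR, DESeq2 and limma called 0 of 78 in Hetero KO against WT, with 1 at an unadjusted p under 0.05, against 4.76% of all genes. Among all genes edgeR called 0%, DESeq2 called 6 higher and 1 lower, and limma called 0. Hetero KO values lay wholly above WT in 7 genes and wholly below in 11, where 9.47% and 11.1% of all genes did. After Gtf2a2 and Polr2m, the smallest p belonged to Taf6 (-0.86), Med14 (0.45) and Med10 (0.36).

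Homo KO against Hetero KO gave 0 calls among the 78 by the same 3 tools. Among all genes edgeR called 0%, DESeq2 called 89 higher and 22 lower, and limma called 2 higher and 0 lower. An unadjusted p under 0.05 was reached by 9 of 78, against 8.22% of all genes. Polr2g had 213, 256 and 197 CPM in Homo KO, against 135, 147 and 134 CPM in Hetero KO (log2 fold change 0.68, SE 0.174, adjusted p = 0.421). Med10 had 1204, 1581 and 1222 CPM, against 918, 982 and 810 CPM (0.56, SE 0.155). For both the 3 Homo KO libraries lay above the 3 Hetero KO libraries. Homo KO was wholly above Hetero KO in 8 genes and wholly below in 4, where 8.33% and 6.38% of all genes were. Med1, of the Mediator middle, had 57.9, 98.9 and 81.4 CPM in Homo KO, against 52.4, 48.6 and 54.0 CPM in Hetero KO (0.62), and Taf4a (-0.90) and Taf8 (-0.73) had lower values. Summed Mediator TPM were 5621 to 6488 in Homo KO, 4728 to 5635 in Hetero KO and 4450 to 4563 in WT, so that the 2 knockout groups overlapped and lay above WT. Med10 alone made up 26.6% to 45.6% of this sum across the 8 libraries of the 4-cell stage, so the sum need not describe the other Mediator genes. Cumulus and granulosa markers summed to 3.95 to 12.4 TPM in Homo KO (5 to 6 of 8 at 0), 0.59 to 1.54 TPM in Hetero KO (4 to 5 at 0) and 1.12 to 1.97 TPM in WT (5 at 0). The 7 markers of 2-cell embryos summed to 278 to 382 TPM, 54.8 to 152 TPM and 17.1 to 283 TPM in the same order. The 6 blood markers gave 206 to 305 TPM (3 to 5 at 0), 63.5 to 175 TPM (5 at 0) and 66.7 to 185 TPM (4 to 5 at 0), and the 6 sperm markers 8.71 to 10.4 TPM (2 to 3 at 0), 4.97 to 5.66 TPM (2 at 0) and 5.19 to 6.66 TPM (2 at 0). Their part in these values was not tested.

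**Figure D5:**
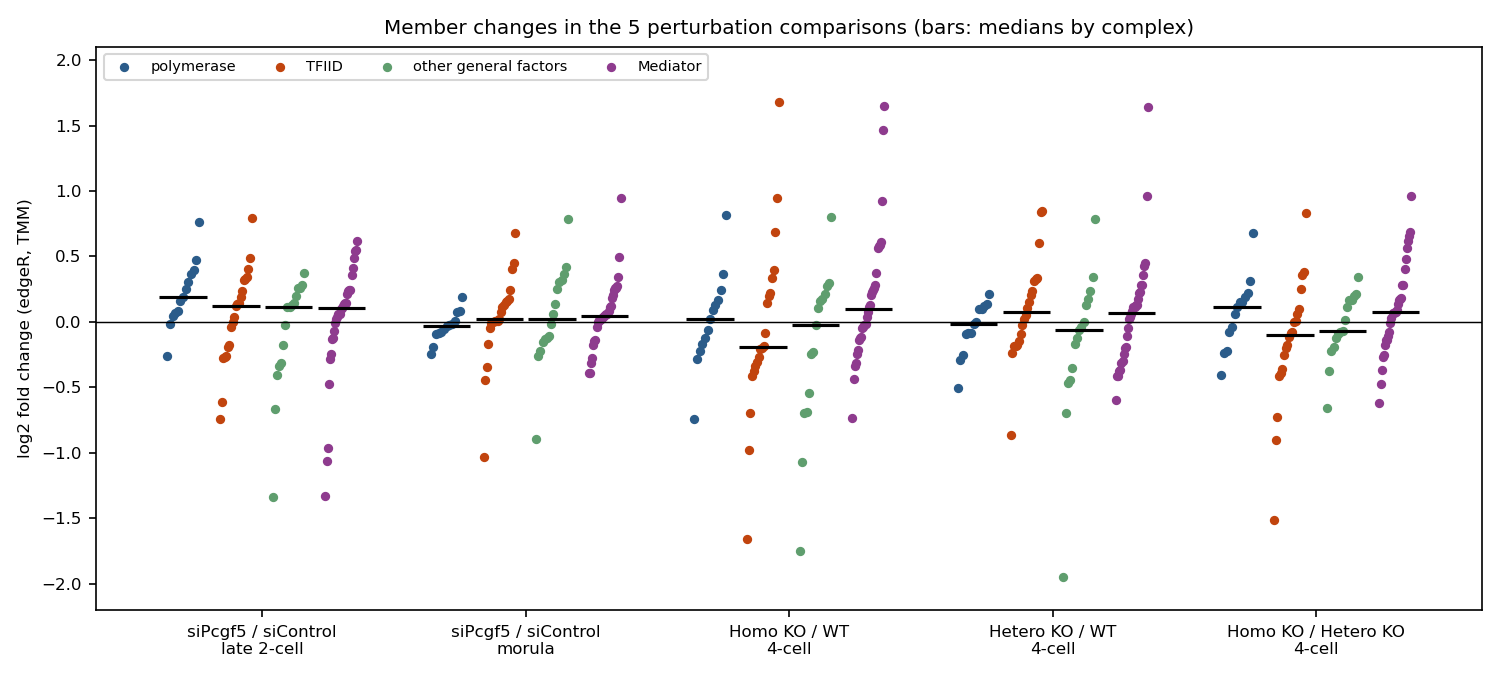
Log2 fold change of each gene in the 5 perturbation comparisons, coloured by complex, with bars at the medians by complex (80 genes in the knockdown and 78 in the knockout). Medians lie between -0.19 and 0.19, and no point has an edgeR adjusted p under 0.05.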

How the data were processed

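The deposited files hold RSEM gene values per library: the expected count of each gene, unscaled, and the TPM, scaled to a fixed total, per the file headers. Per the submitters' processing notes the tools and build were STAR 2.7.10, RSEM 1.3.3, Bowtie2 2.4.5, deepTools and mm10, whose roles are not given. Strand use and read filters are not given in the sources used here. The 4 chromatin libraries were not analysed here.

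Expected counts were rounded. The 8 knockdown and 8 knockout libraries were fitted apart, with 1 coefficient per group, in edgeR 4.0.16 (quasi-likelihood F test, robust, TMM, filterByExpr with a minimum count of 10, R 4.3.3), two-sided, which left 16980 and 13766 genes and common coefficients of variation of 0.46 and 0.517. Alternatives were DESeq2 size factors, DESeq2 1.42.0, limma 3.58.1 on log2(TPM + 1), no filter, a fit of only the compared groups, a block on replicate number, and each library left out. A TFIID sum without Taf9 was added after the data were seen. A group at 0 was given a floor of 3 counts, which covers counting error only.

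The 80 genes, the gene lists and the tests were chosen with earlier results of these data known. The text names all polymerase subunits, Tbp, Tbpl2 and the paralogue pairs, per complex the 5 largest rises and 5 largest falls with groups apart, and otherwise members past the threshold or the 5 smallest p. Other genes, such as Taf10, Gtf2f1 and those whose calls 1 library decides, were named after their values were seen. Names and promoters come from RefSeq tables of GRCm38.p6.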

Additional observations from a re-analysis of the deposited data

How the results depend on the processing

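The stage counts moved most by limma on log2(TPM + 1), which changes tool, transformation and unit together, so which of these moved them was not tested. With DESeq2 size factors alone 39 of 43 siControl and 39 of 40 siPcgf5 calls kept their direction. In siControl morula against late 2-cell embryos the median log2 fold change of the 80 genes was 0.03 with DESeq2 size factors or DESeq2 and -0.62 by limma on log2(TPM + 1), with 7 genes higher and 41 lower, of which 21 of the 43 edgeR calls kept their direction. In siPcgf5 embryos limma gave 11 higher, 39 lower and a median of -0.55. Over all genes limma called 2452 higher and 7388 lower in siControl embryos, and 2558 and 6846 in siPcgf5 embryos. All-gene medians were -0.34, -0.51 and -0.50 in siControl embryos by edgeR, DESeq2 and limma. Sums by complex in TMM-scaled counts per kilobase gave morula over late 2-cell ratios of 1.13 for the polymerase, 0.553 for TFIID, 1.43 for the other general factors and 1.43 for Mediator. With Taf9 left out, the TFIID ratio was 0.493 in TPM and 1.00 in TMM-scaled counts per kilobase. Paralogue shares did not change with this scaling.

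Directions that turned in siControl embryos were Tbp (-0.14 with DESeq2 size factors and with DESeq2, -0.95 by limma), Taf7 (-0.11, -0.11 and -0.90), Polr2f (-0.55), Polr2h (-0.45), Polr2l (-0.03), Med12 (-0.17) and Taf2 (-0.23) by limma, and Polr2d, at 0.01 without a filter and 0.02 with the replicate block. In siPcgf5 embryos limma gave -0.68 for Polr2f, -0.53 for Polr2h, -0.27 for Polr2l, -0.14 for Taf5l and -0.29 for Med12.

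With 1 library left out, the siControl stage median ran from 0.21 to 0.46, higher calls from 21 to 33 and lower calls from 9 to 14. The siPcgf5 stage gave 0.11 to 0.27, 20 to 23 and 10 to 12. The siPcgf5 effect at the late 2-cell stage had a median from 0.06 to 0.28. Signs turned within these ranges for Tbp (-0.13 to 0.19), Taf7 (-0.22 to 0.39) and Polr2d (-0.37 to 0.44) in siControl embryos, Med12 (-0.23 to 0.53), Med13l (-0.42 to 0.11) and Taf7 (-0.12 to 0.05) in siPcgf5 embryos, and Taf9b (-1.84 to 0.82) between siPcgf5 and siControl morulae. A lone library of a group is assumed to vary like the other groups.

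The difference between the siPcgf5 effects had a median of 0.04 by limma and -0.09 by edgeR. Homo KO against WT had 1 of these genes called higher without a filter, where 38 of all genes were, and 3 by DESeq2, where 237 were. The replicate block gave 26 higher and 12 lower calls in siControl embryos, 26 and 14 in siPcgf5 embryos, and 0 in all others. The numbers did not pair the libraries: deviations of same-numbered libraries correlated between -0.168 and 0.218. Tbpl2 and Gtf2a1l could not be tested at the 4-cell stage, where neither exceeded 18 counts. Their median TPM there were 0.215 and 0.29, against 3.96 and 3.31 at the late 2-cell stage. The part of depth in the low counts was not tested.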
